A study of Mus musculus with 9 samples.

Results

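Adipose stromal cells from lactating mammary glands (ASC-Ls) were compared with those from involuting glands (ASC-Is) on 6 of the 9 arrays of the series, 3 for each stage. The remaining 3 arrays hold cells from nulliparous mice (ASC-Ns). All cells came from female Balb/c mice: ASC-Ls at day 5 of lactation, ASC-Is at day 3 of involution after the pups had been removed, and ASC-Ns from mice of 8 weeks that had not been exposed to males. Arrays were chosen by their stage labels alone, and the comparison covered every probe set that the array annotation pairs with exactly 1 gene symbol, 21762 of 28348, for 19930 genes. The question asked of these arrays is how the stroma of the secreting gland differs from that of the regressing gland. The sample labels describe stroma separated by enzyme digestion and centrifugation, whereas the study's methods describe RNA from low passage cultures, so that cells changed by growth on plastic may be included. Which mice stand behind each array was not given in the sources used here, so the tests speak only of how far these preparations varied.

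In lactation the mammary epithelium fills the fat pad and the adipocytes give up their lipid. After weaning, milk stasis sets off involution, in which the secretory epithelium dies, macrophages and other phagocytes enter the gland and clear cells and milk, matrix is remodeled and adipocytes refill. The stromal fraction of the fat pad holds adipose progenitors and fibroblasts, together with macrophages, endothelial cells and pericytes, and epithelial fragments can be carried with it.

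The arrays carried the stromal genes of their label. Col1a1, the main fibrillar collagen chain of fibroblasts, had a log2 signal of 12.85 to 13.36 and Acta2, the smooth muscle actin of pericytes and myofibroblasts, of 12.91 to 13.34 over the 6 arrays. Adipoq, the adipokine of mature adipocytes, lay between 3.82 and 4.10. One pair of arrays stood apart. The mean of the luminal epithelial markers was 8.64 for the second ASC-L preparation and 7.37 for the second ASC-I preparation, against 5.77 to 6.78 elsewhere in the series. That of the endothelial markers was 7.19 and 6.69 in the same arrays, and 6.88 in ASC-N replicate 1. Counts are therefore given below with all arrays and without both of these arrays. Across probe sets, which are not independent replicates, the correlation between arrays was 0.96 to 0.979 within the ASC-Ls and 0.974 to 0.986 within the ASC-Is.

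A probe set is said to have fallen or risen in ASC-Ls where the unadjusted p of the limma fit was under 0.05 and the change at least 1.5-fold. Below, passing these limits refers to all arrays without a replicate block, unless the block or an array left out is named. In this sense 84 probe sets fell, 0.386% of those tested, and 15 rose, 0.0689%. No probe set passed after Benjamini-Hochberg adjustment (smallest adjusted p = 1), and 389 had an unadjusted p under 0.05, 1.79% of those tested. The replicate number of the sample titles was also used as a block, although the study names no pairing of the arrays. With this block 181 probe sets were lower (0.832%) and 29 higher (0.133%), including 95 of the 99 without the block (smallest adjusted p = 0.996). With both arrays of replicate 2 left out, 174 were lower (0.8%) and 33 higher (0.152%), including 77 of the 99. Every ASC-L array lay below every ASC-I array for 574 probe sets (2.64%) and above for 642 (2.95%), among them 59 of the 84 that fell and 10 of the 15 that rose. Single arrays moved these counts. Without ASC-I replicate 1 only 28 probe sets were lower and without ASC-I replicate 3 there were 54, whereas without ASC-I replicate 2 there were 260 lower and 71 higher. Without ASC-L replicate 1 there were 200 lower and 172 higher, and 31 were higher without ASC-L replicate 2. Without ASC-L replicate 3 there were 60 lower and 37 higher.

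The largest fall belonged to a probe set annotated to Kcnma1, a potassium channel gene. Its log2 signal was 4.39, 4.91 and 5.62 in the ASC-Ls and 12.34, 8.66 and 11.37 in the ASC-Is. All 3 ASC-I arrays lay above all ASC-Ls, with a gap of 3.04 between the groups, and the difference was 56.4-fold (standard error 1.15 on the log2 scale). ASC-N replicates 1 and 2 were at 4.21, while replicate 3 stood at 8.03. The other probe set of Kcnma1 differed by -0.20 (standard error 0.17), with all 6 arrays between 4.61 and 5.25. The study lists this probe set under another gene name, Mela, and which transcript the probes detect cannot be told from these values.

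Members of the macrophage and myeloid lists made up the greater part of the falls. Of the 84 probe sets that fell, 46 belong to at least 1 of these lists. The lists counted as myeloid also cover lysosomal, eicosanoid and apoptosis genes. What share of all probe sets tested belongs to them was not computed. Among these lists, 8 of 29 macrophage marker probe sets fell and 0 of 32 lysosomal ones, against 0.386% of all probe sets tested. The lists were chosen with earlier results of these data known, so the overlap is a description and not a test. Clec4d, a C-type lectin receptor of myeloid cells, measured 6.60, 5.93 and 5.73 in the ASC-Ls and 9.20, 7.18 and 8.35 in the ASC-Is. The groups did not overlap, ASC-I replicate 1 was the highest array, and Clec4d fell 4.45-fold (standard error 0.57). Lyz2, the lysozyme of macrophages and granulocytes, measured 10.26, 9.29 and 9.59 against 12.16, 10.56 and 11.63, again without overlap, and fell 3.33-fold (standard error 0.53). The ASC-I array of lowest signal was replicate 2 for both genes. In bulk RNA of this kind, fewer myeloid cells and less of each transcript per cell cannot be told apart.

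The macrophage markers moved as a group. Of 30 listed, 29 were measured, 27 of them lower in ASC-Ls with a median difference of -0.98, where the median of all probe sets was 0.01 and 48.1% were below 0. The mean of the list was 5.84 to 6.13 in the ASC-Ls and 6.28 to 7.48 in the ASC-Is. In the ASC-Ns it was 7.08, 6.96 and 5.75, so that the nulliparous arrays spanned the range of both other stages. Of the list 8 genes fell, 17 were lower past the limits with the replicate block and 11 without both arrays of replicate 2. Past the limits were 1 without ASC-I replicate 1, 4 without ASC-I replicate 3, 13 without ASC-I replicate 2, and 4 without ASC-L replicate 1 or 3.

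Adgre1, which encodes the macrophage antigen F4/80, measured 5.50, 5.37 and 5.52 in the ASC-Ls and 7.45, 5.63 and 8.02 in the ASC-Is, and fell 2.97-fold (standard error 0.55). The ASC-Ls were close together, whereas ASC-I replicate 2 lay barely above them. Itgam, the alpha chain of the complement receptor CR3, measured 6.84, 6.54 and 6.56 against 9.06, 7.36 and 8.11 and fell 2.88-fold (standard error 0.64). Mpeg1, a pore-forming protein of phagosomes, fell 2.81-fold (standard error 0.65), Cd84, a receptor of the SLAM family, fell 2.67-fold (standard error 0.45) and Ms4a7, a membrane protein of macrophages, fell 2.31-fold (standard error 0.52). Several classical markers missed the limits without the block. Csf1r, the receptor for the macrophage growth factor Csf1, differed by -0.98 (standard error 0.45), and Cd68, a lysosomal glycoprotein of macrophages, by -1.18 (standard error 0.57). C1qa, C1qb and C1qc, the chains of complement C1q, differed by -1.33, -1.43 and -1.49 (standard errors 0.72, 0.93 and 0.86). All 5 passed with the replicate block, and in each of them every ASC-L array lay below every ASC-I array. Mrc1, the mannose receptor, differed by -1.65 but ranged from 5.78 to 9.51 among the ASC-Is and passed in neither fit. Cd163 and Vsig4, which mark resident macrophages, differed by 0.08 and 0.03.

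No such fall was seen in the marker lists of other blood cells, whose mean signals were low. None of the 13 neutrophil, 13 T and NK cell, 7 B cell, 8 dendritic cell or 8 mast cell probe sets passed the limits, and their median differences were -0.03, 0.00, -0.02, 0.04 and 0.01. Of them only Il7r, the interleukin 7 receptor, passed with the replicate block (-0.72), and it also passed without ASC-L replicate 2. A single neutrophil probe set passed without ASC-L replicate 3. Mmp8, the neutrophil collagenase, and Camp, the cathelicidin of neutrophil granules, differed by -0.23 and -0.03. Cd3e of T cells, Cd79b and Pax5 of B cells, Zbtb46 and Batf3 of dendritic cells, and Hdc and Kit of mast cells differed by 0.08, 0.11, 0.14, -0.01, 0.02, 0.00 and 0.32. The mean signal of the T and NK cell list was 4.78 to 4.95 and that of the B cell list 4.50 to 4.68 over the 6 arrays.

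**Figure D1:**
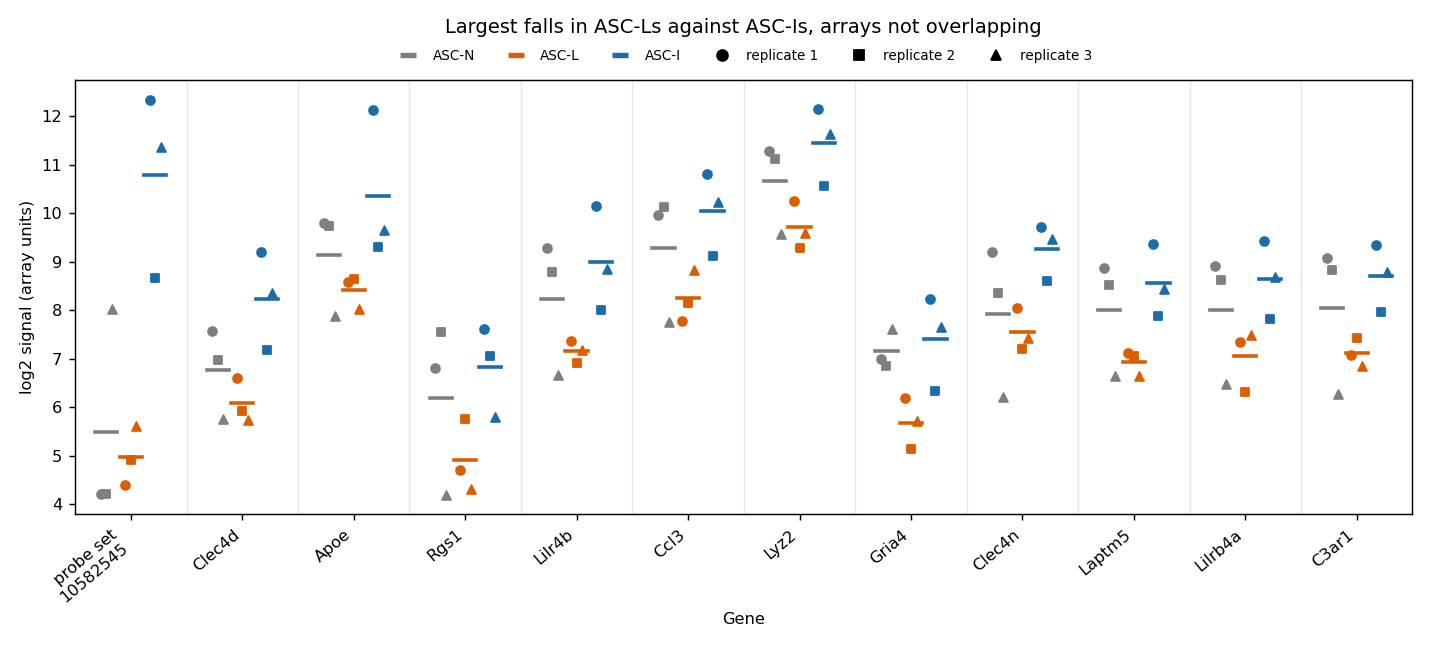
Log2 signal (vertical axis) of the 12 largest falls in ASC-Ls among probe sets whose ASC-L and ASC-I arrays did not overlap, for each of the 9 arrays. Colors mark the stage, symbols the replicate and short lines the mean of 3 arrays. The ASC-Ls lie below the ASC-Is by the choice of genes, and ASC-I replicate 1 is highest for most genes. Often ASC-N replicates 1 and 2 lie near the ASC-Is while ASC-N replicate 3 lies near the ASC-Ls.

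The pattern over the arrays was shared by most of the falling genes. ASC-I replicate 1 was the highest ASC-I array for 66 of the 84, replicate 3 for 17 and replicate 2 for 1, and replicate 2 was the lowest for 72. Both ASC-N replicates 1 and 2 lay above every ASC-L array for 68 of the 84, and ASC-N replicate 3 lay below every ASC-I array for 58. The mean of the ASC-Ls was below that of the ASC-Ns for 83 of the 84. Because the 84 were chosen with the same ASC-L and ASC-I arrays, that choice favors such positions of the ASC-Ns. The shares over all probe sets were not computed, so these counts only describe. The mean of the macrophage markers was likewise highest in ASC-I replicate 1 (7.48) and lowest in ASC-I replicate 2 (6.28) within that stage. Among the ASC-Ns it was lowest in replicate 3 (5.75). Of the 84 probe sets, 46 are themselves in the macrophage or myeloid lists. The part of the macrophage signal in each fall was not tested.

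Receptors that recognize ligands at the myeloid surface fell in number. Of 28 lectin and immunoglobulin-like receptors measured, 25 were lower and 9 fell, with a list median of -0.54. Of them 4 passed without ASC-I replicate 1, 4 without ASC-L replicate 2 and 14 without ASC-I replicate 2. Lilr4b, an immunoglobulin-like receptor, measured 7.37, 6.91 and 7.19 in the ASC-Ls and 10.15, 8.00 and 8.85 in the ASC-Is. It fell 3.59-fold (standard error 0.69). Its near copy Lilrb4a fell 3.02-fold (standard error 0.65), and since the probes of such close relatives can share transcripts, these are not independent results. Clec4n, the lectin Dectin-2 that binds fungal mannans, measured 8.04, 7.21 and 7.43 against 9.72, 8.60 and 9.48 and fell 3.26-fold (standard error 0.67). Both genes were separated between the stages, with ASC-I replicate 2 again the lowest of its group. Cd72 and Clec12a, a pair of inhibitory receptors, fell 2.99-fold and 2.42-fold (standard errors 0.68 and 0.51), though ASC-I replicate 2 overlapped the ASC-Ls in both. Pilra, a paired inhibitory receptor, fell 1.71-fold (standard error 0.18), and its ASC-L arrays of 6.62 to 6.81 lay below the ASC-Is at 7.13 to 7.69.

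The signaling chain behind these receptors was lower as well. Of 6 Fc receptor probe sets 3 fell: Fcgr2b, the inhibitory receptor for IgG, by 1.47, Fcgr3, which activates phagocytes, by 1.20, and Fcgr4, which binds IgG2 subclasses, by 1.12. The list median was -1.16, and no member passed without ASC-I replicate 1 or without ASC-L replicate 3. Fcer1g, the common gamma chain that signals for them, differed by -1.20 (standard error 0.57) and passed with the replicate block. Of 21 probe sets for ITAM adaptors and kinases 18 were lower and 7 fell (median -0.60), of which 1 passed without ASC-I replicate 1. Tyrobp, the adaptor DAP12, measured 6.06, 6.14 and 5.84 in the ASC-Ls and 8.17, 6.86 and 7.03 in the ASC-Is and fell 2.53-fold (standard error 0.46). The ranges did not meet, and the ASC-Ls lay close together. Stap1, Fyb, Btk, Lcp2 and Nfam1, which relay signals of immune receptors, changed by -1.20, -1.15, -0.90, -0.78 and -0.73. Syk, the kinase recruited to phosphorylated ITAMs, differed by -0.51 with a small error (standard error 0.13), and its change was under 1.5-fold.

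Effector genes of phagocytes included 3 of 5 subunits of the NADPH oxidase, which makes superoxide in the phagosome. Cybb, the catalytic subunit, measured 6.23, 7.22 and 7.58 in the ASC-Ls and 9.79, 7.51 and 9.15 in the ASC-Is and fell 3.50-fold (standard error 0.70). ASC-I replicate 2 lay just below the highest ASC-L array. Ncf1, the cytosolic organizer, and Rac2, the GTPase that switches the complex on, changed by -0.97 and -0.81, while the membrane partner Cyba, which many cells use, differed by -0.10. None of the 5 passed without ASC-I replicate 1 or without ASC-I replicate 3. Among pattern recognition genes Tlr13, a receptor for bacterial ribosomal RNA, and Cd14, the coreceptor for lipopolysaccharide, changed by -1.22 and -1.17, and the other 16 probe sets of the Toll-like list did not pass. None of the list passed without ASC-L replicate 1 or without ASC-I replicate 1, 1 passed when ASC-L replicate 2, ASC-L replicate 3 or the third ASC-I array was left out, and 5 without ASC-I replicate 2. Aoah, which inactivates lipopolysaccharide, fell 2.47-fold (standard error 0.51), with ASC-I replicate 2 among the ASC-Ls. It was the only 1 of 17 probe sets for macrophage activation to pass, and their median was -0.24.

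Complement receptors fell together with properdin. C3ar1, the receptor for C3a, measured 7.07, 7.43 and 6.86 in the ASC-Ls and 9.34, 7.97 and 8.80 in the ASC-Is and fell 3.00-fold (standard error 0.67). C5ar1, the receptor for C5a, measured 5.91, 5.56 and 5.05 against 7.85, 6.18 and 6.65 and fell 2.62-fold (standard error 0.53). Cfp, which stabilizes the alternative convertase, fell 2.21-fold (standard error 0.48). Of the 21 complement probe sets 17 were lower, with a median of -0.45 and 4 past the limits, but none passed without ASC-I replicate 1, without ASC-L replicate 2 or without ASC-L replicate 3.

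Genes of leukocyte adhesion and movement formed the list with the most falls beside the lectins. Of 23 probe sets 20 were lower and 9 fell (median -0.79), and 1 passed without ASC-I replicate 1. Laptm5, a lysosomal protein of blood cells, measured 7.11, 7.06 and 6.64 in the ASC-Ls and 9.36, 7.89 and 8.44 in the ASC-Is and fell 3.09-fold (standard error 0.56). Ptprc, the leukocyte common antigen CD45, measured 5.88, 5.94 and 5.53 against 8.04, 6.58 and 6.77 and fell 2.54-fold (standard error 0.58). In neither gene did the stages overlap. Plek, a substrate of protein kinase C in platelets and leukocytes, Cyth4, an exchange factor for small GTPases, and Cd52, a surface glycopeptide of leukocytes, changed by -1.16, -1.07 and -1.02. Selplg, the ligand that lets leukocytes roll on selectins, fell 1.79-fold with one of the smaller errors (standard error 0.24), and passed in each alternative fit.

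Single genes of lipid handling and of regulation in macrophages fell as well. Apoe, the apolipoprotein that carries cholesterol out of macrophages, measured 8.58, 8.64 and 8.03 in the ASC-Ls and 12.13, 9.31 and 9.65 in the ASC-Is and fell 3.86-fold (standard error 0.74). ASC-I replicate 1 stood far above the other arrays, although the stages did not overlap. Apoe was the only 1 of 25 probe sets for engulfment and lipid efflux to fall, 1 rose, and the list median was -0.03. Spi1, which encodes PU.1, the transcription factor required for myeloid cells, measured 5.50, 5.43 and 5.10 against 7.34, 6.22 and 6.25 and fell 2.40-fold (standard error 0.45). It was the only 1 of 22 probe sets for myeloid transcription factors to pass. Alox5, which starts leukotriene synthesis, and the costimulatory ligand Cd86 changed by -0.87 and -0.85. Of the other 14 probe sets for MHC class II and costimulation none fell, and the class II chain H2-Ab1 differed by -0.15. Dpep2, a dipeptidase that processes leukotrienes, fell 2.16-fold (standard error 0.47), though its other probe set differed by -0.43. Trem1 and Ccrl2, an activating receptor of myeloid cells and an atypical chemerin receptor, changed by -0.95 and -1.51, and Ifitm6, an interferon-induced transmembrane protein, changed by -1.40 with a standard error of 0.36. Its arrays were 5.22, 4.34 and 5.45 in the ASC-Ls and 6.93, 5.69 and 6.60 in the ASC-Is. No other member of the interferon response list passed, and its median of 0.07 lay above 0.

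To show what the promoters of these genes hold, the 250 bases before the RefSeq start (build GRCm38.p6) were searched on both strands. The letters of the purine box bound by PU.1 (GAGGAA) were found in 24 of 67 promoters of falling genes with an entry, 35.8%, against 22.6% of the 15560 promoters of all genes tested. The letters of a C/EBP site (TTGCNNAA) were found in 9 of them, 13.4%, against 8.7%, and the AP-1 site (TGACTCA) in 2, 3.0%, against 3.9%. None of these 3 letter strings contains another, and a match is a description of the sequence. Only 6 of the 15 rising genes had an entry, of which 3 held the AP-1 letters and 2 the PU.1 letters. Shown are 2 falling genes with PU.1 letters, Itgam and Clec4d, and 2 rising genes, Lrrc15 with the AP-1 letters and Crabp1 with PU.1 letters, each 5′ to 3′ on the strand of its gene with matches in capitals.
Itgam (chr7:128062390-128062639, + strand): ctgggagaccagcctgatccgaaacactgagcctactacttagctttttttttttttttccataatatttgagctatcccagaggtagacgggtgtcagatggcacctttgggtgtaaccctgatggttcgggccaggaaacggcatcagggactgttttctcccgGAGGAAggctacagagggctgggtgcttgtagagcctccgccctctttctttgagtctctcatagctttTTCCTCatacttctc
Clec4d (chr6:123261857-123262106, + strand): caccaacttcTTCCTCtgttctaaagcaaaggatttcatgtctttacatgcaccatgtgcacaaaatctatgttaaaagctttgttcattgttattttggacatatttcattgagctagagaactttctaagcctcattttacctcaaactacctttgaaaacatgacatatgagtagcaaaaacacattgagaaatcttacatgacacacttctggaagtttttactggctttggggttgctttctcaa
Lrrc15 (chr16:30283255-30283504, - strand): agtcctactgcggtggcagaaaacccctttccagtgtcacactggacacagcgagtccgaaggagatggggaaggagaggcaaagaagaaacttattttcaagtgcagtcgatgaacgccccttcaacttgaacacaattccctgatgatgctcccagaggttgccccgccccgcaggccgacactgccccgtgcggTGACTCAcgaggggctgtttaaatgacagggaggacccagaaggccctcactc
Crabp1 (chr9:54764498-54764747, + strand): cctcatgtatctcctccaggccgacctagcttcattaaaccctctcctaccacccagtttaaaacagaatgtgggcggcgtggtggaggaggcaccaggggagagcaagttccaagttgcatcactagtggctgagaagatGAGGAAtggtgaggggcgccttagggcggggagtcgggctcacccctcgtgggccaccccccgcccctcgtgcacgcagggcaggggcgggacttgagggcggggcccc

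Chemokines and interleukins fell in a few members only. Ccl3, a chemokine that attracts monocytes, measured 7.78, 8.15 and 8.83 in the ASC-Ls and 10.81, 9.13 and 10.23 in the ASC-Is and fell 3.49-fold (standard error 0.65). Ccl6, a macrophage chemokine, and Cxcl2, which attracts neutrophils, changed by -1.21 and -1.14. The other 35 of 38 probe sets for chemokine ligands did not pass, and the list median was -0.04. No chemokine ligand passed without ASC-L replicate 1, without ASC-I replicate 1 or without ASC-I replicate 3. Ccl2, the most familiar monocyte chemokine, differed by -0.44 (standard error 0.78). Il1b, the inflammatory cytokine interleukin 1 beta, measured 5.30 to 7.15 in the ASC-Ls and fell 2.23-fold (standard error 0.49), with ASC-L replicate 2 among the ASC-Is. Il1b was the only 1 of 33 cytokine ligands to pass.

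Among immediate early genes, which respond to stimuli within minutes, 23 of 27 probe sets were lower in ASC-Ls, with a median of -0.21. Past the limits were 3, against 1 when the third ASC-L array or the first or the third ASC-I array was left out, and 5 without ASC-I replicate 2. Rgs1, which turns off G protein signals in leukocytes, measured 4.70, 5.75 and 4.32 in the ASC-Ls and 7.61, 7.05 and 5.81 in the ASC-Is and fell 3.73-fold (standard error 0.82). ASC-I replicate 3 and ASC-L replicate 2 nearly met. Rgs2, a relative of broader expression, and Sik1, a kinase induced by cAMP, changed by -0.97 and -0.70. Fos, Fosb, Nr4a1, Dusp1 and Zfp36 differed by -0.80, -0.73, -0.72, -0.67 and -0.65 (standard errors 0.49, 0.67, 0.41, 0.40 and 0.35). All of them passed with the replicate block, and Dusp1 also with both arrays of replicate 2 left out. For Fos each ASC-L array (9.28, 8.11 and 9.31) lay below the ASC-I array of its number (9.67, 8.82 and 10.62), although the stages overlapped. Egr1, Jun and Atf3 differed by -0.11, -0.04 and -0.04. None of the 25 probe sets for signaling through Stat3 and Stat5, the factors of involution and of lactation, passed. With the replicate block 4 were lower past the limits, among them Socs3, the feedback inhibitor induced by Stat3 (-0.61), Il6st, the shared receptor of the interleukin 6 family (-0.66), and Cebpd, a transcription factor of early involution (-0.71). The other probe set of Socs3 differed by -0.41 and did not pass. Socs3 and Il6st also passed with both arrays of replicate 2 left out, 3 members were lower past the limits without ASC-I replicate 2 and 1 was higher without ASC-L replicate 1. Stat3 itself differed by -0.16 and Jak1, its kinase, by -0.05.

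**Figure D2:**
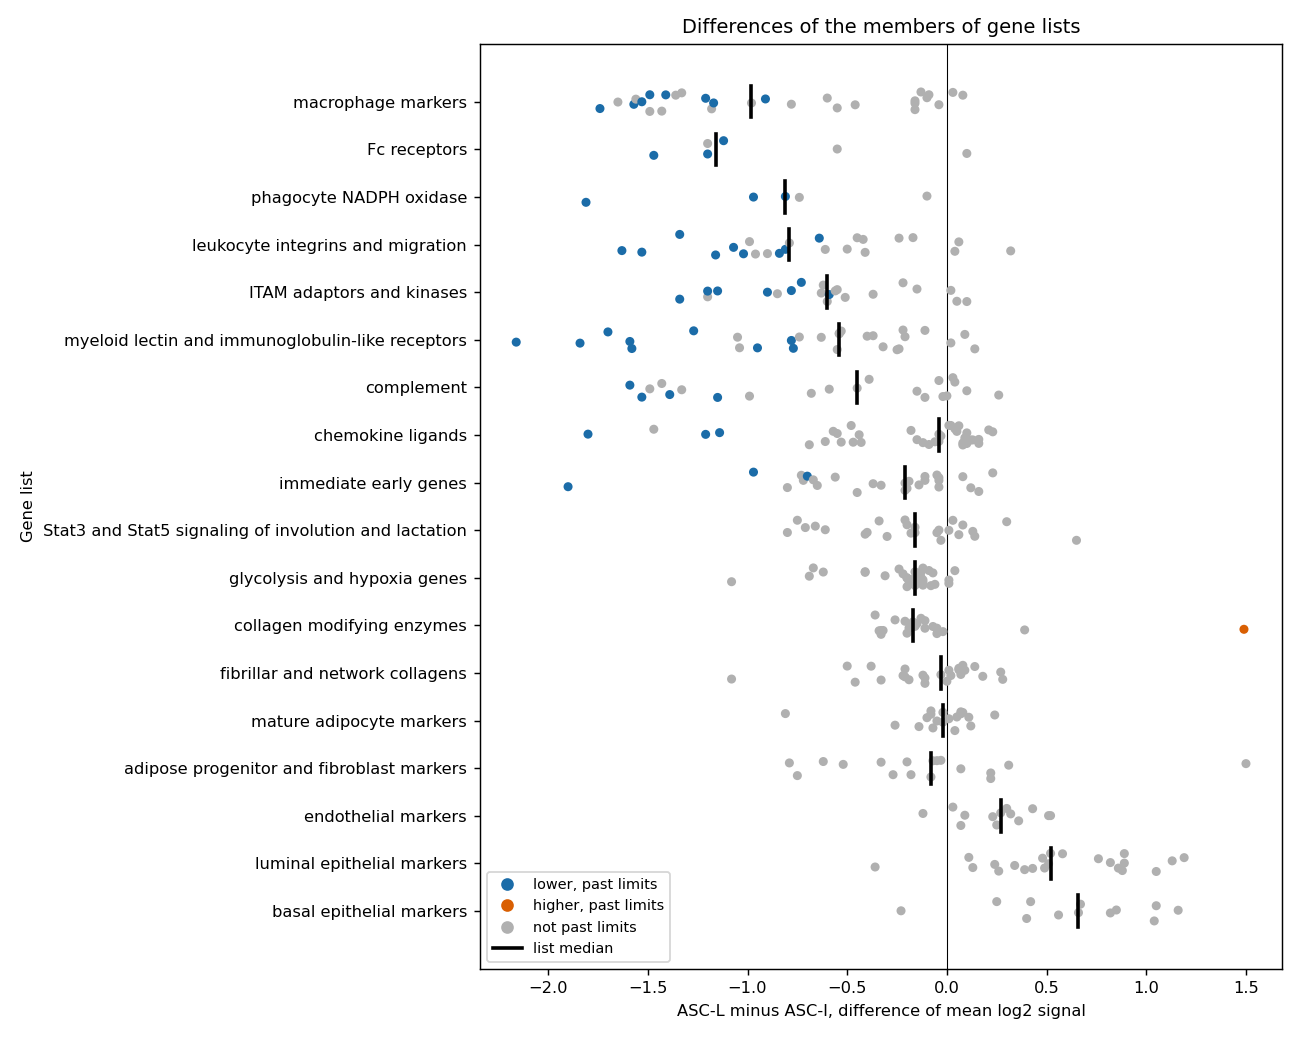
Difference of mean log2 signal between ASC-Ls and ASC-Is (horizontal axis) for each probe set of selected gene lists, with the list median as a black line. The myeloid lists drawn lie to the left with medians from -1.16 to -0.45, and the myeloid lists not drawn had medians of -0.24 to 0.05. Lists of collagens and adipocytes lie near 0, and P3h2 stands alone at 1.49 among the collagen modifying enzymes.

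**Figure D3:**
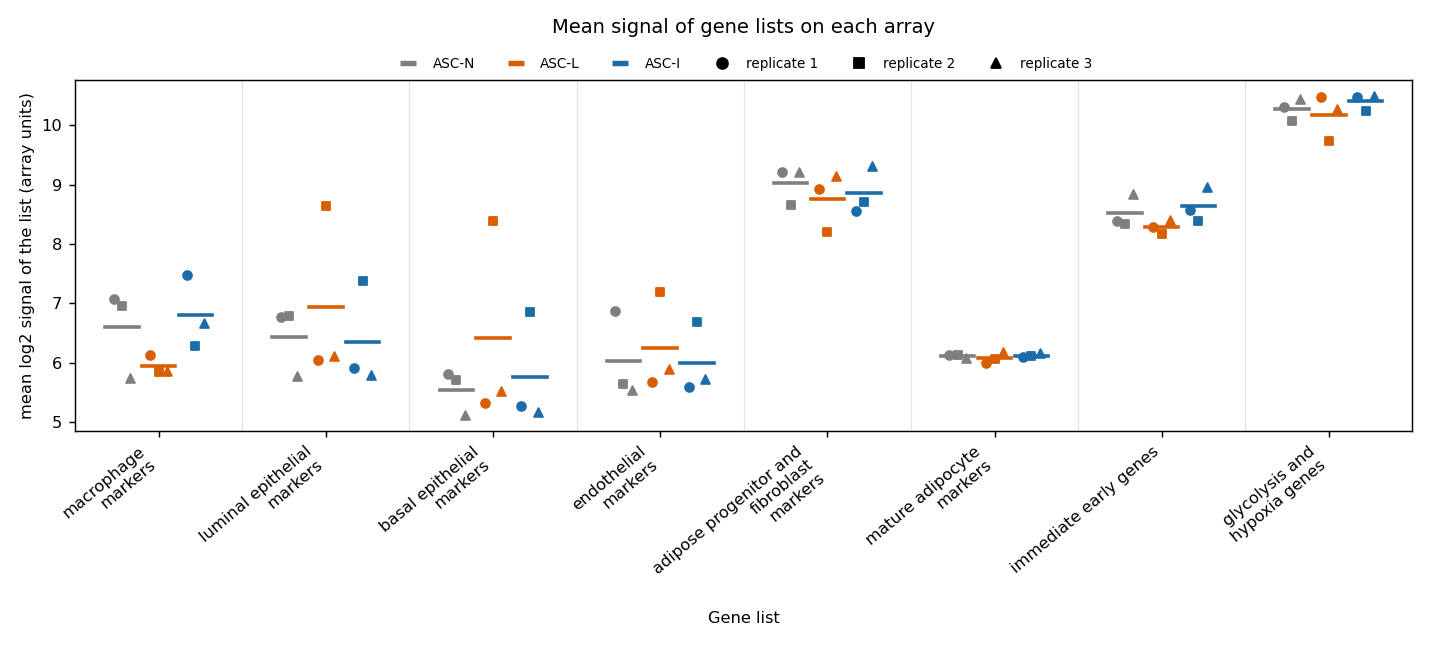
Mean log2 signal of gene lists (vertical axis) on each array, by stage, with symbols for the replicate and short lines for the mean of 3 arrays. The arrays of replicate 2 carry the most luminal and basal epithelial signal in both parous stages, and the macrophage list lies at 5.84 to 6.13 in the ASC-Ls and 6.28 to 7.48 in the ASC-Is.

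Other falls lay outside the myeloid lists. Gria4, a subunit of the AMPA glutamate receptor, measured 6.19, 5.13 and 5.72 in the ASC-Ls and 8.24, 6.34 and 7.65 in the ASC-Is and fell 3.32-fold (standard error 0.46). Its ASC-Ns were at 6.99, 6.86 and 7.62, all above the ASC-Ls, with replicate 3 the highest of them, whereas it had the lowest macrophage marker mean. Gabra3, a subunit of the GABA-A receptor, measured 5.35, 4.49 and 5.53 against 7.04, 5.42 and 6.88, with ASC-Ns of 6.34 to 6.93, and fell 2.50-fold (standard error 0.43). ASC-I replicate 2 lay below ASC-L replicate 3, and the other ASC-Is were apart from the ASC-Ls. Of the other 17 probe sets for AMPA and GABA-A receptor subunits none passed, and Gabre passed with the replicate block (-0.61) and with both arrays of replicate 2 left out (-0.94).

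Etfbkmt, a methyltransferase of mitochondria, measured 6.92, 6.19 and 5.94 in the ASC-Ls, 8.01, 6.75 and 7.89 in the ASC-Is and 7.25 to 7.61 in the ASC-Ns, and fell 2.30-fold (standard error 0.35). ASC-I replicate 2 lay below ASC-L replicate 1, and the other Etfbkmt probe set, at 3.53 to 3.87, differed by -0.13. Aldh1a2, which makes retinoic acid, measured 7.89, 8.94 and 7.01 in the ASC-Ls and fell 2.24-fold (standard error 0.48), but did not pass with the replicate block. Its highest ASC-L array was replicate 2, above ASC-I replicate 2 at 8.71. Cavin2, a coat protein of caveolae, Serpinb6b, a protease inhibitor, and Adamtsl1, a matrix glycoprotein related to the ADAMTS proteases, changed by -1.11, -1.03 and -0.97, and the other Adamtsl1 probe set differed by -0.80. Prg4, the lubricating proteoglycan, and Cdkn2a, the locus of the cell cycle inhibitors p16 and p19Arf, changed by -0.91 and -0.85. Cdkn2a was the only 1 of 28 cell cycle probe sets to pass, and their median of 0.08 lay above 0. Resf1, a regulator of retroelement silencing in stem cells, measured 8.12, 8.34 and 7.97 in the ASC-Ls and 9.20, 8.47 and 9.04 in the ASC-Is and changed by -0.76 (standard error 0.26). Hilpda, an inhibitor of lipolysis at the lipid droplet, measured 6.36, 6.25 and 6.09 against 7.03, 6.95 and 6.59, without overlap, and fell 1.55-fold (standard error 0.17). Hoxd8 was the only 1 of 37 Hox probe sets to fall, by 0.65 (standard error 0.20), with 27 of the 37 below 0. Without ASC-L replicate 1 there were 4, without ASC-I replicate 2 there were 3, and without ASC-I replicate 3 there were 0. Among the 10 smallest p-values with the replicate block were also Apol7c, an apolipoprotein L gene that changed by -0.77, and Rasl11a, a Ras-like GTPase that differed by -0.66. Apol7c had a signal of only 2.72 to 3.42 in the ASC-Ls. Rasl11a passed with the block, without ASC-L replicate 1 and without ASC-I replicate 2.

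Dio3, the deiodinase that inactivates thyroid hormone, and Mir495 both fell, and both lie in the imprinted Dlk1-Dio3 region, a cluster whose maternal chromosome expresses the long noncoding RNAs Meg3 and Rian and a large group of miRNAs. The region was looked at after these values were seen, so its counts are a description. The array has 47 probe sets with 1 symbol from Dlk1 to Dio3 in the gene order of RefSeq, 40 of them for miRNA genes. Of the 47, 39 were lower in ASC-Ls, with a median difference of -0.20, and of all 301 miRNA probe sets on the array 150 were below 0, with a median of 0.00. With both arrays of replicate 2 left out, 42 of the 47 were lower. Neighbors here can share a transcript, and the probe sets are not independent of each other.

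Dio3 measured 5.58, 4.67 and 4.65 in the ASC-Ls and 6.43, 5.26 and 7.11 in the ASC-Is and fell 2.47-fold (standard error 0.50). ASC-I replicate 2 lay below ASC-L replicate 1, and Dio3 did not pass when either the second or the third ASC-L array, or the first or the third ASC-I array, was left out, with differences of -1.22 to -0.88. Mir495 measured 3.38, 2.59 and 2.64 against 3.66, 3.38 and 3.74 and fell 1.65-fold (standard error 0.22), at a signal near the bottom of the array. The groups touched at 3.38. With the replicate block 6 probe sets of the region were lower past the limits and none higher: Dio3, Mir495, Meg3 (-0.67), Mir382 (-0.63), Mir380 (-0.59) and Mir329 (-0.60). Of these 4 that the block added, Mir382, Mir380 and Mir329 also passed without ASC-I replicate 2, and Mir382 and Mir380 without ASC-L replicate 1. Meg3 was the most strongly detected of them, with 10.07, 8.65 and 9.24 in the ASC-Ls and 10.34, 9.24 and 10.40 in the ASC-Is, so that each ASC-L array lay below the ASC-I array of its number. Rian differed by -0.59 and Mir487b by -0.37, and both passed with the arrays of replicate 2 left out (-0.88 and -0.64), where 4 probe sets of the region were lower past the limits. The protein-coding genes Dlk1 and Rtl1 differed by -0.05 and 0.03. Thra, a receptor for the hormone that Dio3 inactivates, differed by -0.64 and passed with the block, and the other 8 probe sets of the thyroid hormone list did not pass with or without it.

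The probe sets read the miRNA precursors and not the mature strands. For the 4 miRNA genes past the limits in either fit, the mature strands in RefSeq (GRCm38.p6) are shown with the seed, bases 2 to 8, in capitals, because the seed decides which messages a miRNA can pair with. No seed was shared between any of the 8 strands, and none was shared with another mature miRNA of the region. Outside the region 2 of the seeds do recur. Counting the strand itself, 3 mature miRNAs carry the seed of miR-495-3p and 2 that of miR-329-3p.
mmu-miR-495-5p (chr12:109718757-109718779, + strand): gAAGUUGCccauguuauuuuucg
mmu-miR-495-3p (chr12:109718795-109718816, + strand): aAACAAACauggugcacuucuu
mmu-miR-382-5p (chr12:109733781-109733802, + strand): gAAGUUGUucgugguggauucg
mmu-miR-382-3p (chr12:109733819-109733840, + strand): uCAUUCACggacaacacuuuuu
mmu-miR-380-5p (chr12:109711806-109711827, + strand): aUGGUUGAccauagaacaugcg
mmu-miR-380-3p (chr12:109711842-109711863, + strand): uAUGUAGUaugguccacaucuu
mmu-miR-329-5p (chr12:109713503-109713524, + strand): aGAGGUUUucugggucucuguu
mmu-miR-329-3p (chr12:109713541-109713562, + strand): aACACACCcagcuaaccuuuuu

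**Figure D4:**
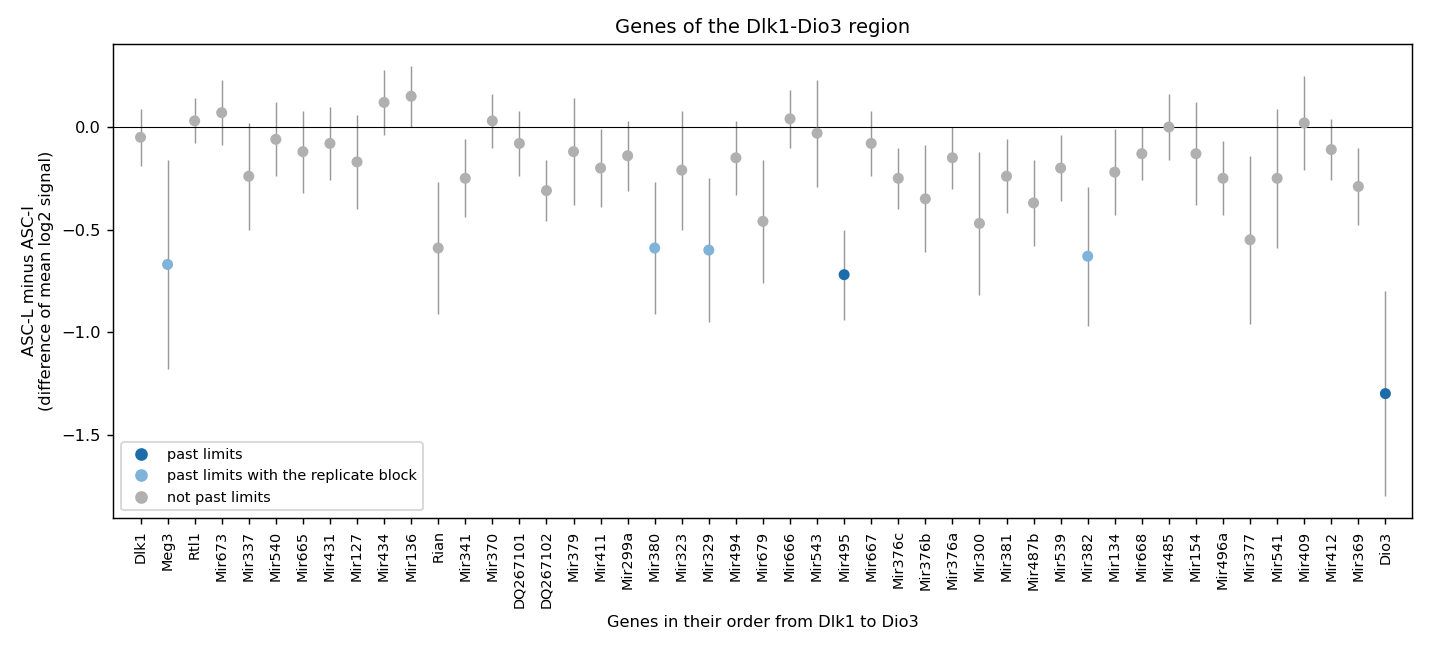
Difference of mean log2 signal between ASC-Ls and ASC-Is (vertical axis, bars give the standard error) for the 47 probe sets of the Dlk1-Dio3 region in gene order (horizontal axis, evenly spaced). Of the 47, 39 lie below 0, Dio3 and Mir495 passed the limits, and Meg3, Mir382, Mir380 and Mir329 passed with the replicate block.

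Small shifts in 1 direction were seen for genes of glycolysis and hypoxia. Of 30 probe sets 27 were lower in ASC-Ls and none passed, with a median of -0.16. The abundant glycolytic enzymes Aldoa and Pgk1 differed by -0.12 each. Bnip3, a mitochondrial protein induced by low oxygen, differed by -0.69 and -0.67 in its probe sets, and Pdk1, which keeps pyruvate out of mitochondria, by -0.62. These 3 probe sets passed with the replicate block, and 3 of the list were lower past the limits without ASC-L replicate 1. The mean of the list was 10.48, 9.74 and 10.27 in the ASC-Ls and 10.48, 10.23 and 10.49 in the ASC-Is, and ASC-L replicate 2, the array of highest epithelial signal, was the lowest. Without both arrays of replicate 2, 21 of the 30 were lower and the median was -0.05. The part of the epithelial signal in this shift was not tested.

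**Figure D5:**
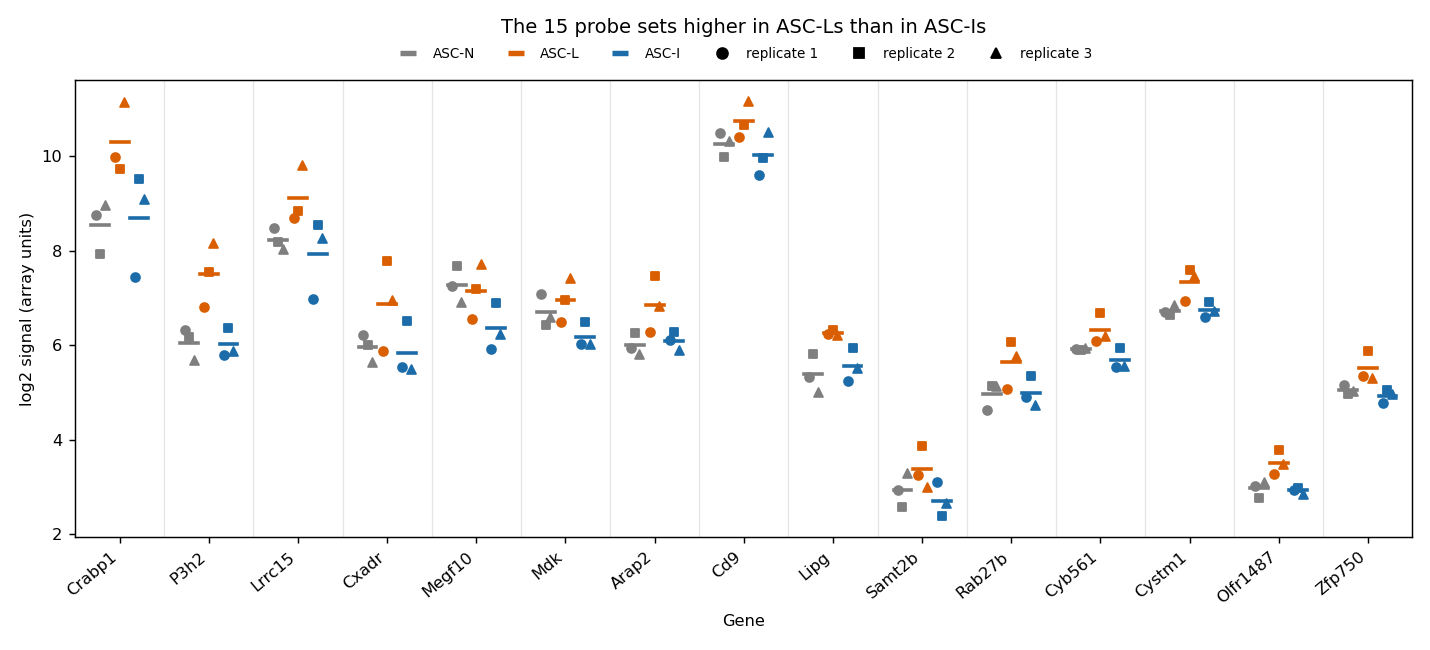
Log2 signal (vertical axis) of the 15 probe sets that rose in ASC-Ls against ASC-Is, for each of the 9 arrays, ordered by the size of the rise. Colors mark the stage, symbols the replicate and short lines the mean of 3 arrays. ASC-L replicate 2 or replicate 3 is the highest ASC-L array for all 15.

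The 15 rises were of mixed function, and the largest of them were smaller than the largest falls. The mean of the ASC-Ls was also above that of the ASC-Ns for 14 of them, Megf10 being the exception. Every ASC-L array lay above every ASC-N array for 9. Because the 15 were chosen with the same ASC-L arrays, that choice favors both counts. The shares over all probe sets were not computed. The highest ASC-L array was replicate 2 for 9 and replicate 3 for 6. Of the 15, 8 passed with both arrays of replicate 2 left out. Crabp1, a cellular retinoic acid binding protein, measured 9.99, 9.73 and 11.15 in the ASC-Ls and 7.45, 9.52 and 9.09 in the ASC-Is and rose 3.04-fold (standard error 0.56). The stages did not overlap but came within 0.21 of each other, and Crabp1 did not pass without ASC-L replicate 3 (difference 1.18) or without ASC-I replicate 1 (0.99). Its ASC-Ns were at 8.76, 7.94 and 8.96. Crabp2, its close relative, differed by 0.10, and 24 of the 26 probe sets of the retinoid list did not pass.

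P3h2, a prolyl 3-hydroxylase that acts on basement membrane collagen, measured 6.82, 7.55 and 8.17 in the ASC-Ls, 5.80, 6.37 and 5.89 in the ASC-Is and 5.68 to 6.32 in the ASC-Ns, and rose 2.82-fold (standard error 0.33). All ASC-Ls lay above the other 6 arrays, and P3h2 was the only rise to pass in each alternative fit. Of the other 21 probe sets for collagen modifying enzymes 20 were lower and none passed, with a list median of -0.17, or -0.06 without both arrays of replicate 2. The family members P3h1 and P3h3 differed by -0.05 and -0.34. None of 25 fibrillar and network collagens passed, although 2 were lower past the limits without ASC-I replicate 2 and 1 without ASC-L replicate 1. Col1a1 and Col1a2 differed by -0.03 and -0.11 (standard errors 0.18 and 0.22). Lrrc15, a membrane protein of activated fibroblasts, measured 8.69, 8.84 and 9.81 against 6.99, 8.55 and 8.28 and rose 2.26-fold (standard error 0.42), though not without ASC-L replicate 3 (difference 0.83) or ASC-I replicate 1 (0.70). It was the only 1 of 20 myofibroblast probe sets to pass, whereas without ASC-L replicate 1 there were 3 lower and 2 higher.

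Mdk, the growth factor midkine, measured 6.50, 6.95 and 7.43 in the ASC-Ls and 6.02, 6.49 and 6.03 in the ASC-Is and rose 1.71-fold (standard error 0.26). Its lowest ASC-L array stood 0.01 above the highest ASC-I array. Lipg, the endothelial lipase that hydrolyzes phospholipids of lipoproteins, measured 6.23, 6.33 and 6.21 against 5.24, 5.94 and 5.53, without overlap, and rose 1.61-fold (standard error 0.23). None of the other 14 lipase probe sets passed. Arap2, a GTPase activating protein of focal adhesions, Cyb561, an electron carrier of secretory vesicles, and Cystm1, a small membrane protein, rose by 0.76, 0.64 and 0.59. Zfp750, a transcription factor of epithelial differentiation, and Olfr1487, an olfactory receptor gene, each rose by 0.59. Olfr1487 did so at a signal of only 3.28 to 3.78 in the ASC-Ls.

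The remaining rises overlapped between the stages. Cxadr, a junction protein of epithelial cells, measured 5.89, 7.78 and 6.96 against 5.54, 6.51 and 5.49 and rose 2.05-fold (standard error 0.45). Its highest arrays in each stage were those of replicate 2, which also carried the most epithelial signal. Megf10, an engulfment receptor, rose by 0.80, the tetraspanin Cd9 by 0.71, and Rab27b, a GTPase of vesicle release, by 0.65. Samt2b, a gene of the SAM domain containing transmembrane family, rose by 0.65 but did not pass with the replicate block. Its signal was only 3.00 to 3.88 in the ASC-Ls. Some genes were higher past the limits with the block and not without it, among them Met, the receptor for hepatocyte growth factor (0.84, standard error 0.39), and the costimulatory receptor Cd40 (0.84, standard error 0.42). Hgf, the ligand of Met, differed in the opposite direction (-0.89, standard error 0.46). Hgf passed with the block and also with both arrays of replicate 2 left out.

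Markers of other cells were tested for the same contrast. None of the 22 luminal epithelial, 12 basal epithelial or 14 milk probe sets passed, although 21, 11 and 12 of them were higher in ASC-Ls, with medians of 0.52, 0.66 and 0.31. Krt8, a keratin of luminal cells, measured 6.75, 12.31 and 7.80 in the ASC-Ls and 7.10, 10.52 and 7.66 in the ASC-Is, and Krt5, a keratin of basal cells, 5.59, 11.39 and 6.63 against 5.43, 9.48 and 5.57. The arrays of replicate 2 stood far above the others in both stages. Without them 17, 8 and 10 of the probe sets were higher, with medians of 0.27, 0.18 and 0.10. A single luminal and a single milk probe set passed without ASC-L replicate 1. Krt19 and Krt14 differed by -0.36 and 0.85 (standard errors 0.70 and 1.36), and Mfge8 and Xdh, proteins of the milk fat globule, by -0.12 and -0.38. Of 13 endothelial probe sets 12 were higher (median 0.27, none past the limits), with Eng at -0.12 and Egfl7 at 0.27. Sox10 and Mbp of Schwann cells and Slc4a1 and Alas2 of erythroid cells differed by 0.12, 0.14, 0.12 and 0.16.

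Genes that define the stroma and the adipocyte did not separate the stages. None of the 17 progenitor and fibroblast, 12 pericyte and smooth muscle or 19 mature adipocyte probe sets passed, and their medians were -0.08, 0.13 and -0.02. The progenitor marker Mfap5 and the pericyte receptor Pdgfrb differed by -0.27 and 0.14 (standard errors 0.25 and 0.26). Osr1, a transcription factor of fibro-adipogenic progenitors, passed with the block (-0.79). Without ASC-L replicate 1, 2 progenitor and 2 pericyte probe sets were lower past the limits. Lum, the proteoglycan lumican, measured 7.79, 7.95 and 9.06 in the ASC-Ls and 4.62, 7.61 and 8.08 in the ASC-Is and did not pass (standard error 0.99). ASC-I replicate 1 stood far below the other arrays. Agpat2, an enzyme of triglyceride synthesis, differed by -0.02 (standard error 0.12) and Scd2 and Me1 of fatty acid synthesis by 0.10 and -0.01.

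The list of genes followed by RT-PCR held 10 members, of which Crabp1 alone passed. Fabp4, the fatty acid binding protein of adipocytes, Pparg, the master factor of adipogenesis, Lipe, the hormone-sensitive lipase, and Klf2, which holds preadipocytes undifferentiated, differed by -0.05, -0.13, 0.07 and -0.04 (standard errors 0.21, 0.24, 0.14 and 0.22). Lpl, lipoprotein lipase, differed by -0.14 with a wide error (standard error 0.58). Among the angiogenic factors Vegfa differed by -0.07 (standard error 0.20), Mmp9 by 0.32 (standard error 1.04) and Il6 by -0.75 (standard error 0.81). Vegfd, a ligand that drives growth of lymphatic vessels, measured 11.32, 6.73 and 9.52 in the ASC-Ls and 11.41, 9.36 and 12.04 in the ASC-Is. It differed by -1.74 (standard error 1.05) and passed with the replicate block, with both arrays of replicate 2 left out (-1.30), without ASC-L replicate 1 and without ASC-I replicate 2. Every ASC-L array lay below the ASC-I array of its number. ASC-L replicate 2 was the lowest array.

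In all, 33 of the 61 gene lists held at least 1 probe set past the limits with all arrays, and 12 did without ASC-I replicate 1. Lists without any in the fit to all arrays, of which several held 1 to 4 when an array was left out, included lysosomal proteases and hydrolases (32 probe sets, median -0.07), heat shock and unfolded protein genes (30, 0.02), Wnt and TGF-beta modulators (33, 0.10), cytokine receptors (31, -0.20) and the insulin-like growth factor system (17, -0.02). Of their most strongly detected members, Psap and Ctsl of lysosomes differed by -0.10 and -0.05, Inhba and Tgfb1 by 0.11 and 0.51, Igfbp7 and Igfbp6 by -0.12 and -0.85 (the latter past the limits without ASC-L replicate 1 and with both arrays of replicate 2 left out), and the receptor subunit Osmr by -0.40. Ebf1 and Cebpb of adipogenesis differed by -0.17 and -0.20, Adipor1 and Insr among hormone receptors by -0.07 and -0.09, Mcl1 and Bcl2l1 among inhibitors of apoptosis by -0.15 and -0.01, Casp8 and Bak1 by -0.06 and 0.06, and Ptger4 and Ptgir among lipid mediator receptors by -0.17 and -0.14. The 3 probe sets of the chaperone Hspa8 differed by -0.17 to -0.04.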

How the data were processed

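RNA of 9 preparations of adipose stromal cells was hybridized to Affymetrix Mouse Gene 1.0 ST arrays, 3 for each of 3 stages. The deposited values are log2 signals per probe set, which the authors had normalized between arrays, with RMA if the study's methods are followed and with GCRMA and limma if the submitters' processing notes are. RNA was extracted with an RNeasy kit according to the methods and with Trizol per the labels. Background correction moves low signals most, and differences near the bottom of the array are the least certain. Array medians were 5.93 to 6.00, and no further normalization was applied. Probe sets were named by the array annotation; 1621 with several symbols and 4965 with none were left out of the test. Entrez identifiers of 21671 were found in RefSeq, with 0 symbols changed.

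The test was limma 3.58.1 in R 4.3.3 on all 9 arrays, each stage having its own mean (prior degrees of freedom 2.97), and the contrast was ASC-L minus ASC-I. A call required an unadjusted p under 0.05 and at least 1.5-fold, and p-values were adjusted by the Benjamini-Hochberg method over all 21762 probe sets. With 3 arrays against 3, an exact permutation test cannot go below 0.1, so none was used. The fitting code was tested on simulated data. Deviations from the stage means of same-numbered ASC-L and ASC-I arrays correlated across probe sets (r = 0.46, 0.72 and 0.45), and values from a model that includes this number (the replicate block) are given where they change a call. The numbers come from the sample titles, and the study names no pairing. The number of arrays limits the precision.

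The comparison, the 61 gene lists and the tests were chosen with earlier results of these data known. Lists are described by counts and medians. Genes named were the 12 largest falls and all rises whose arrays did not overlap, and the 10 smallest p-values with the block. Also named were up to 6 members of each list past the limits, or else the 2 of highest signal in most lists. The list of 10 genes of the study's RT-PCR was named in full, and it does not hold every gene the study measured in that way. Other genes were chosen after their values were seen, among them genes that passed with the block or without an array, the Dlk1-Dio3 region, Resf1, Hilpda, Etfbkmt and Trem1. Alternatives were the replicate block, only the 6 arrays compared, quantile normalization, cyclic loess, an intensity trend with a robust prior, weighting of arrays, exclusion of probe sets with SD under 0.05 or in the lowest 25% of signal, all probe sets, averaging over each gene, leaving out each array, and, chosen after seeing the data, leaving out both arrays of replicate 2.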

Additional observations from a re-analysis of the deposited data

How the results depend on the processing

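With 84 probe sets lower and 15 higher in ASC-Ls, these counts stayed within 1.5-fold with only the 6 arrays compared (108 and 13), an intensity trend with a robust prior (66 and 14), cyclic loess (68 and 12), quantile normalization (87 and 13), removal of the lowest 25% of signal (71 and 11), removal of SD under 0.05 (84 and 15), all probe sets of the array (103 and 19) and averaging over each gene (81 and 15). The replicate block gave 181 lower and 29 higher, and array weights 127 lower and 17 higher. Leaving out 1 array at a time gave 28 to 260 lower and 10 to 172 higher probe sets, and 12 to 41 gene lists with a call, against 33 with all arrays. With both arrays of replicate 2 left out, the counts were 174 lower and 33 higher. The cause of these moves was not tested. No called probe set changed direction in any of the alternatives in which it was fitted. Of the 99, 12 passed in every alternative in which they were tested, Ccrl2, Clec4d, Etfbkmt, Gria4, Ifitm6, Lyz2, P3h2, Pilra, Selplg, Stap1, Trem1 and the probe set of the 56.4-fold difference, and 20 passed without ASC-I replicate 1. With the replicate block 95 of the 99 passed, all but Aldh1a2, Rassf4, Tagap and Samt2b. With 3 arrays a stage and no adjusted p under 0.05, single genes carry little weight, and signals under about 4, as for Mir495, lie near the bottom of the array.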

Other observations

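Probe sets with several symbols or none were fitted apart from the main comparison. Of those with several, 9 were lower in ASC-Ls past the same limits and 0 higher. They included 3 probe sets of the Bcl2a1 family, inhibitors of apoptosis in blood cells, whose copies Bcl2a1a to Bcl2a1d cannot be told apart by these probes and of which the first 2 were 2.05-fold lower, and 2 for Cd300ld3, Cd300ld4 and Cd300ld5, myeloid receptors, at -0.71 and -0.67. A probe set shared by Mirg and Mir410, in the Dlk1-Dio3 region, was 1.54-fold lower (standard error 0.25). A pair of probe sets shared by Hspa8 and small nucleolar RNAs of its introns differed by -0.64 and -0.63, while the 3 of Hspa8 alone differed by -0.17 to -0.04.

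Of the probe sets with no symbol 6 were lower and 4 higher past the limits. The largest difference was that of probe set 10582549, with 4.84, 4.82 and 5.11 in the ASC-Ls and 10.54, 6.42 and 8.81 in the ASC-Is, 12.7-fold lower (standard error 0.90). Its order over the ASC-I arrays, replicate 1 above 3 above 2, was that of the probe set with the 56.4-fold difference. Probe set 10448124 followed with 4.58, 4.35 and 5.22 against 7.01, 4.77 and 7.73, 3.45-fold lower (standard error 0.64). What these probes detect was not determined here.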
